A study of Cricetulus griseus with 9 samples.

Results

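The genes described here encode the machinery that transcribes protein-coding genes: the subunits of RNA polymerase II, the Mediator complex, the general transcription factors with their TAF proteins, and the factors of elongation, Integrator cleavage and 3′ end formation. They were chosen by symbol (mainly names starting with Polr2, Med, Gtf2, Gtf3, Taf, Supt, Ints, Cpsf, Cstf, Ell, Tcea or Nelf, together with Ctr9, Paf1 and Leo1), by a rule on names that uses no measured value, although the topic itself was picked with earlier results of these data known, and 107 of the 6753 listed genes met the rule. RNA was sequenced from MI5-4, a Chinese hamster ovary cell line, in 3 groups of 3 libraries. The EV group carried an empty vector and is described in the series' design as lacking hexokinase, the enzyme that phosphorylates glucose on entry to glycolysis. The WTHK2 group is labelled as expressing wild-type HK2, and the LAC group was EV cells kept in 10 mM sodium lactate over 24 h. All groups share the MI5-4 background and the same glucose-containing medium with fetal bovine serum, and LAC also shares the empty vector. The labels do not say whether EV and WTHK2 are single clones. The comparisons ask how the transcripts of this machinery stood in cells labelled with HK2 and in cells given lactate, against the same EV libraries.

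RNA polymerase II assembles on promoters with the general factors TFIIA, TFIIB, TFIID, TFIIE, TFIIF and TFIIH, of which TFIID holds most TAF proteins. Mediator carries signals from DNA-bound activators to the polymerase through head, middle and tail modules, and a separable kinase module docks on its core through MED13 or MED13L. After initiation, NELF and DSIF hold the polymerase near the promoter, the PAF complex and FACT assist its passage through chromatin, Integrator cleaves short RNAs from paused polymerases, and CPSF and CstF direct cleavage and polyadenylation of messenger RNA.

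Values are normalized read counts on the CPM scale, and group values are means ± SD of 3 libraries. Each fold change is a difference of log2(CPM + 1) estimated with limma over all genes, and a gene was called changed at an adjusted p under 0.05. Effective library sizes ran from 18050959 to 26238659 reads, and no listed gene had fewer than 304 reads in a library. The labels do not state that the libraries came from separate cultures, so the p-values cover only library-to-library spread, which may be technical. Members' means over all libraries ran from 23.5 CPM (Taf2) to 575 CPM (Polr2a), with a median of 65.7 CPM. The median coefficient of variation of the members was 3.72% in EV, 4.54% in WTHK2 and 4.90% in LAC, beside 3.60%, 4.43% and 4.71% over all genes. Hk2, the labelled gene, stood at 67.3 ± 2.11 CPM in EV, with 65.3 ± 1.33 in WTHK2 and 67.8 ± 2.92 in LAC, so its level does not separate the libraries labelled WTHK2 from EV (log2 difference -0.04, adjusted p = 0.52), and every direction given for WTHK2 rests on the label. The 2 listed hexokinase genes, Hk2 included, summed to 400, 390 and 383 CPM in the EV libraries. The sums were 345, 349 and 358 CPM in WTHK2 and 369, 373 and 369 CPM in LAC. None of 6 leukocyte and 5 epithelial marker genes was listed, and 4 of 6 mesenchymal markers were. In bulk RNA, fewer cells with a transcript and less of it per cell cannot be told apart.

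Transcripts of the machinery moved in both directions, and by little. Against EV, 26 of the 107 members were higher and 29 lower in WTHK2, which is 51.4% of the members where 46.4% of all genes were called (21.0% higher and 25.4% lower). In LAC, 33 were higher and 22 lower, again 51.4%, where 49.5% of all genes were called (22.4% higher and 27.1% lower). The shares were thus near the background. The median log2 difference of the members was 0.02 in WTHK2 and 0.03 in LAC, beside -0.01 and 0.00 over all genes. No member reached a 1.5-fold change in WTHK2, and 1 did in LAC (Med13l, lower). Over all 6753 genes, 86 were called with such a change in each comparison. The split between higher and lower depended on the scaling: 47.3% of the changed members were higher in WTHK2 as deposited, 67.3% (37 higher, 18 lower) after scaling libraries to a common median and 60.8% with quantile normalization. In LAC the share was 60.0%, 68.3% and 63.3%. The 29 lower members in WTHK2 became 19 without the library EV 1 and 16 without EV 2. WTHK2 and EV did not overlap for 67 members (62.6%, beside 57.1% of all genes), and LAC and EV did not for 64 (59.8%, beside 57.8%). WTHK2 and LAC share the EV libraries, so their directions against EV are not independent of each other.

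**Figure D1:**
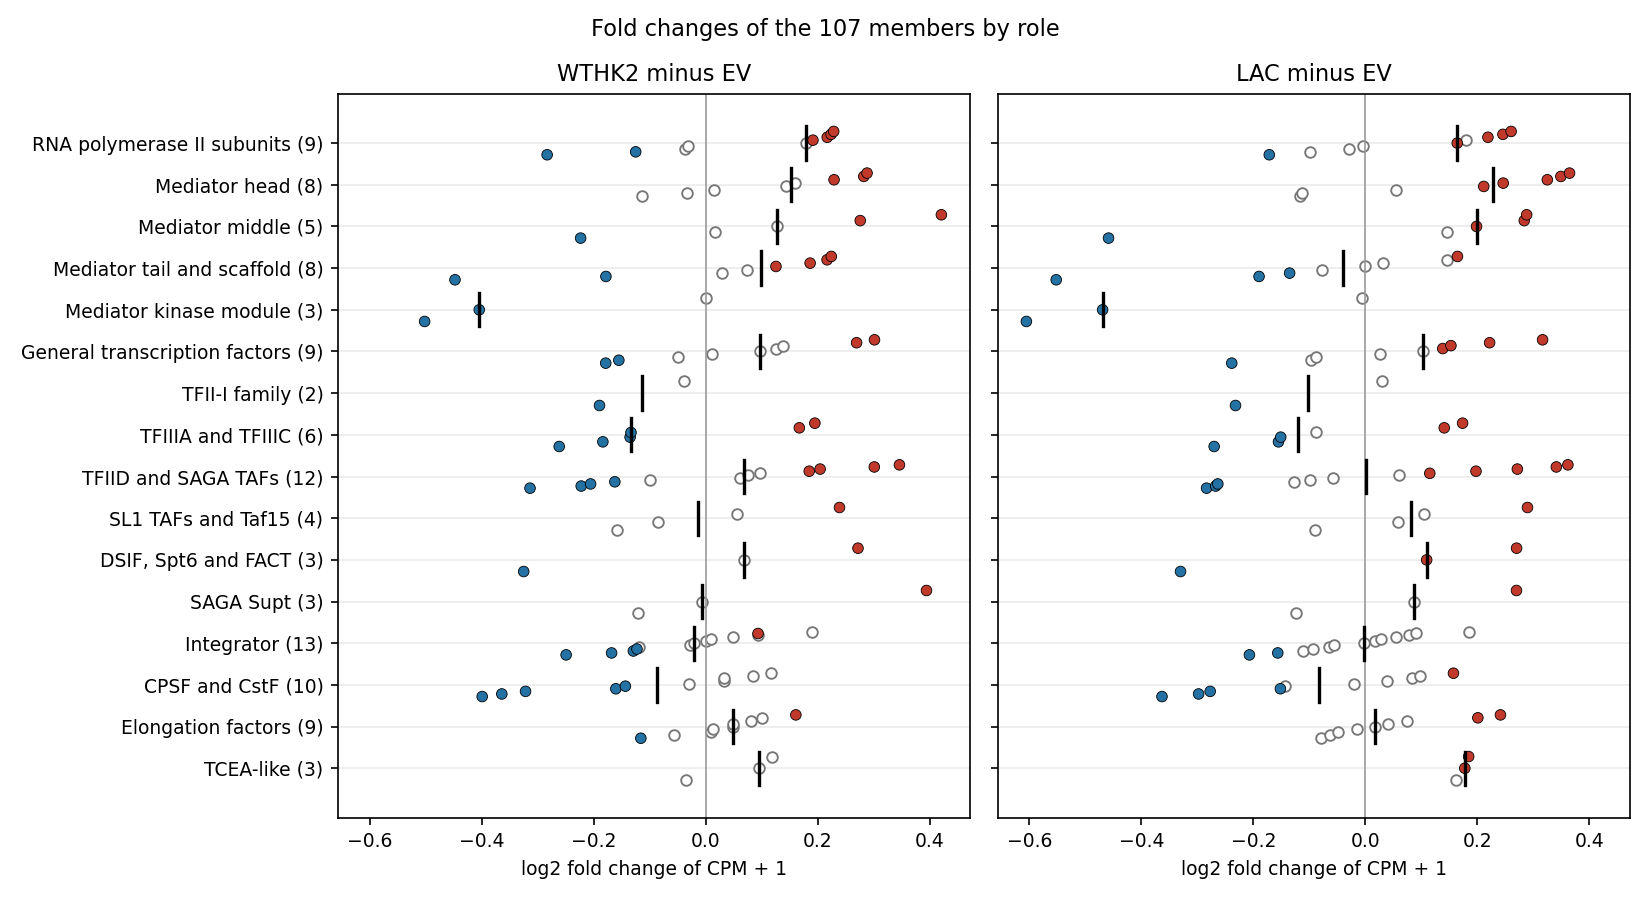
Each point is 1 of the 107 members, placed by its log2 fold change of CPM + 1 against EV (left WTHK2, right LAC) in rows by role; red points were called higher, blue lower and open points not called, and the black bar is the row's median. The kinase module of Mediator lies farthest to the left in both panels, and Med4 at 0.42 in WTHK2 is the farthest to the right.

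RNA polymerase II itself showed a lower catalytic subunit and higher small subunits. Of 9 listed subunits, 4 were higher and 2 lower in WTHK2 and 4 higher and 1 lower in LAC. The shares called were 66.7% and 55.6%, beside 46.4% and 49.5% of all genes. Polr2a, the largest subunit, which carries the C-terminal repeat domain and the active site, stood at 667, 619 and 624 CPM in EV, 562, 501 and 506 in WTHK2, and 581, 556 and 557 in LAC. Every WTHK2 and LAC library lay below every EV library. The log2 difference was -0.28 (SE 0.042, adjusted p = 2.23e-05) in WTHK2 and -0.17 (SE 0.042, adjusted p = 0.00223) in LAC. Polr2b, the second-largest subunit, which forms the active centre with Polr2a, stood at 178 ± 0.708 CPM in EV and 163 ± 8.18 in WTHK2, a log2 difference of -0.12 (adjusted p = 0.022), and at 166 ± 5.08 in LAC (-0.10, adjusted p = 0.061).

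The subunits that rose include Polr2e, POLR2F and Polr2h, which RNA polymerases I and III also use. Polr2e stood at 178, 182 and 180 CPM in EV, 211 in each WTHK2 library, and 209, 195 and 202 in LAC. The groups did not overlap, with log2 differences of 0.23 (SE 0.038, adjusted p = 7.67e-05) and 0.16 (adjusted p = 0.00143). POLR2F rose from 151 ± 3.06 CPM to 176 ± 2.41 in WTHK2 and 179 ± 9.18 in LAC, and all EV libraries lay below all others. Polr2h rose by 0.22 and 0.26 on the log2 scale (adjusted p = 0.0078 and 0.0019) and Polr2j, which pairs with Polr2c in the assembly platform, by 0.19 and 0.22 (adjusted p = 0.02 and 0.0081). Polr2c itself stood at 122 ± 3.04, 120 ± 4.26 and 122 ± 1.18 CPM in EV, WTHK2 and LAC, and Polr2m at 225 ± 3.19, 219 ± 10.1 and 221 ± 5.04, neither called. Polr2d, which with its partner forms the stalk, was not called either, at 23.3 ± 1.63 CPM in EV and 26.6 in both other groups. In WTHK2 the call of Polr2b was lost without EV 1, EV 2 or WTHK2 3 (adjusted p 0.0591 to 0.127) and under both rescalings, that of Polr2h without EV 1 (0.0556), and that of Polr2j without EV 1 or WTHK2 2 (0.0714 to 0.0786).

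**Figure D2:**
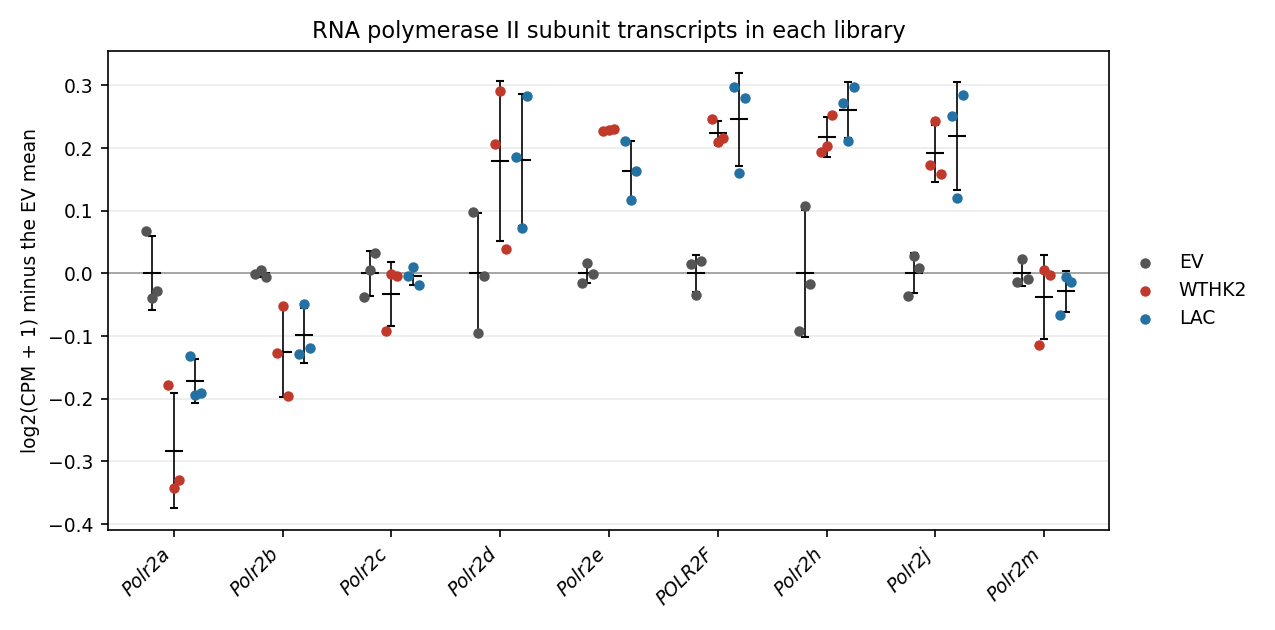
Points give log2(CPM + 1) of each library minus the EV mean of the gene for the 9 RNA polymerase II subunits, with EV in grey, WTHK2 in red and LAC in blue; bars are the mean ± SD of 3 libraries. All WTHK2 and LAC points of Polr2a lie below EV, and those of Polr2e and POLR2F lie above it.

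Mediator held the members with the largest changes in either direction. Of 24 listed subunits, 9 were higher and 5 lower in WTHK2 (median log2 difference 0.10, 58.3% called, beside 46.4% of all genes). In LAC, 9 were higher and 6 lower (median 0.04, 62.5% called, beside 49.5% of all genes). Called falls were Med13, Med13l, Med14, Med1 and Med23 in both comparisons and Med16 in LAC, and the called rises lay in the head, middle and tail.

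In the kinase module, Med13 and Med13l fell and Med12 was not called. Med13l, a paralog of Med13 that takes its place in a separate form of the module, stood at 60.1, 68.0 and 63.0 CPM in EV, 46.0, 43.8 and 44.1 in WTHK2 and 37.3, 45.4 and 42.1 in LAC. No library of WTHK2 or LAC reached the lowest of EV. Its log2 differences were the largest falls among the members, -0.50 (SE 0.07, adjusted p = 1.15e-05) in WTHK2 and -0.61 (adjusted p = 2.03e-06) in LAC. Med13 stood at 103, 108 and 98.6 CPM in EV, 76.0, 81.9 and 75.6 in WTHK2 and 79.5, 77.7 and 66.3 in LAC, again with no overlap (log2 differences -0.40 and -0.47, adjusted p = 3.51e-05 and 7.26e-06). Med12, which activates the kinase of the module, stood at 156 ± 0.708 CPM in EV, with 156 ± 9.63 in WTHK2 and 155 ± 5.02 in LAC.

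Med14, the scaffold that ties head, middle and tail together, stood at 98.7, 108 and 104 CPM in EV, 71.7, 76.3 and 78.5 in WTHK2 and 65.2, 74.7 and 70.7 in LAC. The EV libraries all lay above the rest, with log2 differences of -0.45 (SE 0.057, adjusted p = 4.16e-06) and -0.55 (adjusted p = 8.01e-07). Med1, the subunit of the middle module that binds nuclear receptors, stood at 192, 207 and 192 CPM in EV, 160, 171 and 175 in WTHK2 and 133, 154 and 144 in LAC. The 3 groups did not overlap, with EV highest and LAC lowest (-0.22, adjusted p = 0.00157, and -0.46, adjusted p = 1.64e-06). Med23, a tail subunit, was at 96.3 ± 4.71 CPM in EV, with 85.0 ± 3.12 in WTHK2 and 84.3 ± 3.28 in LAC (-0.18 and -0.19, adjusted p = 0.00841 and 0.00509), and in WTHK2 its call was lost without EV 2 (adjusted p = 0.0522).

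The head module, which contacts the polymerase, had 3 of 8 subunits higher and 0 lower in WTHK2 (37.5% called, beside 46.4% of all genes). In LAC, 5 were higher and 0 lower (62.5%, beside 49.5%). MED11 stood at 22.0, 21.7 and 23.4 CPM in EV, 26.5, 27.3 and 29.0 in WTHK2 and 28.1, 28.3 and 30.0 in LAC. All EV libraries were below the others (log2 differences 0.29 and 0.35, adjusted p = 0.00362 and 0.000718). MED18, which forms the movable jaw of the head, stood at 30.1 ± 2.45 CPM in EV, with 33.7 ± 0.67 in WTHK2 and 39.0 ± 1.78 in LAC. It was called in LAC (0.36, adjusted p = 0.000383) and not in WTHK2 (0.16, adjusted p = 0.076), and the difference between WTHK2 and LAC was -0.21 (adjusted p = 0.0576). MED8, which anchors Med18, was likewise called in LAC (0.33, adjusted p = 0.00405) and not in WTHK2 (0.14, adjusted p = 0.177). Med6 was at 50.8 ± 3.03 CPM in EV, with 61.9 ± 1.90 in WTHK2 and 59.0 ± 3.19 in LAC (0.28 and 0.21, adjusted p = 0.000906 and 0.0073), and Med30 rose by 0.23 and 0.25 on the log2 scale. MED17, the central subunit of the head, was not called, at 56.7 ± 1.32, 57.4 ± 3.99 and 59.0 ± 3.23 CPM. The call of Med6 in LAC was lost without EV 2 (adjusted p = 0.0569) and that of Med30 in WTHK2 without WTHK2 3 (0.0774).

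In the middle module, Med4 and Med21 rose while Med1 fell. Med4 stood at 87.6, 89.4 and 89.4 CPM in EV, 137, 107 and 115 in WTHK2 and 119, 100 and 108 in LAC. It had the largest rise of any member in WTHK2 (log2 difference 0.42, SE 0.07, adjusted p = 7.19e-05), rose by 0.29 in LAC (adjusted p = 0.00199), and was highest in replicate 1 of both groups. Med21, a small subunit that pairs with Med7 in the hinge of the middle module, was at 88.1 ± 6.20 CPM in EV and at 107 in WTHK2 and in LAC (SD 4.06 and 6.32), with log2 differences of 0.28 in each (adjusted p = 0.000486 and 0.00035). MED10 was called in LAC and not in WTHK2, at 50.2 ± 1.52 CPM in EV, with 54.9 ± 0.783 in WTHK2 (adjusted p = 0.066) and 57.7 ± 1.76 in LAC (adjusted p = 0.0061).

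The tail module, counted with the scaffold, had 4 of 8 subunits higher and 2 lower in WTHK2 (75% called, beside 46.4% of all genes). In LAC, 1 was higher and 3 lower (50%, beside 49.5%). Med27 rose in both, by 0.22 (adjusted p = 0.0061) and 0.16 (adjusted p = 0.029). Med29 was at 64.8 ± 3.61 CPM in EV, with 75.9 ± 3.59 in WTHK2 (0.22, adjusted p = 0.0056) and 71.8 ± 5.30 in LAC (0.15, adjusted p = 0.056). Med25, a target of several activators, was called in WTHK2 (0.13, adjusted p = 0.03) and not in LAC (0.03, adjusted p = 0.58). Med15, a tail subunit bound by lipid-regulating activators, was not called, at 90.9 ± 1.39, 92.9 ± 3.31 and 91.1 ± 8.18 CPM. The call of Med27 in LAC was lost without EV 1, EV 3, LAC 1 or LAC 3 (adjusted p 0.0549 to 0.0963), and that of Med25 in WTHK2 without any 1 of EV 1, EV 2, EV 3, WTHK2 1 and WTHK2 3 (0.0506 to 0.134). Med16 and Med24 are described with the direct comparison of WTHK2 and LAC.

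**Figure D3:**
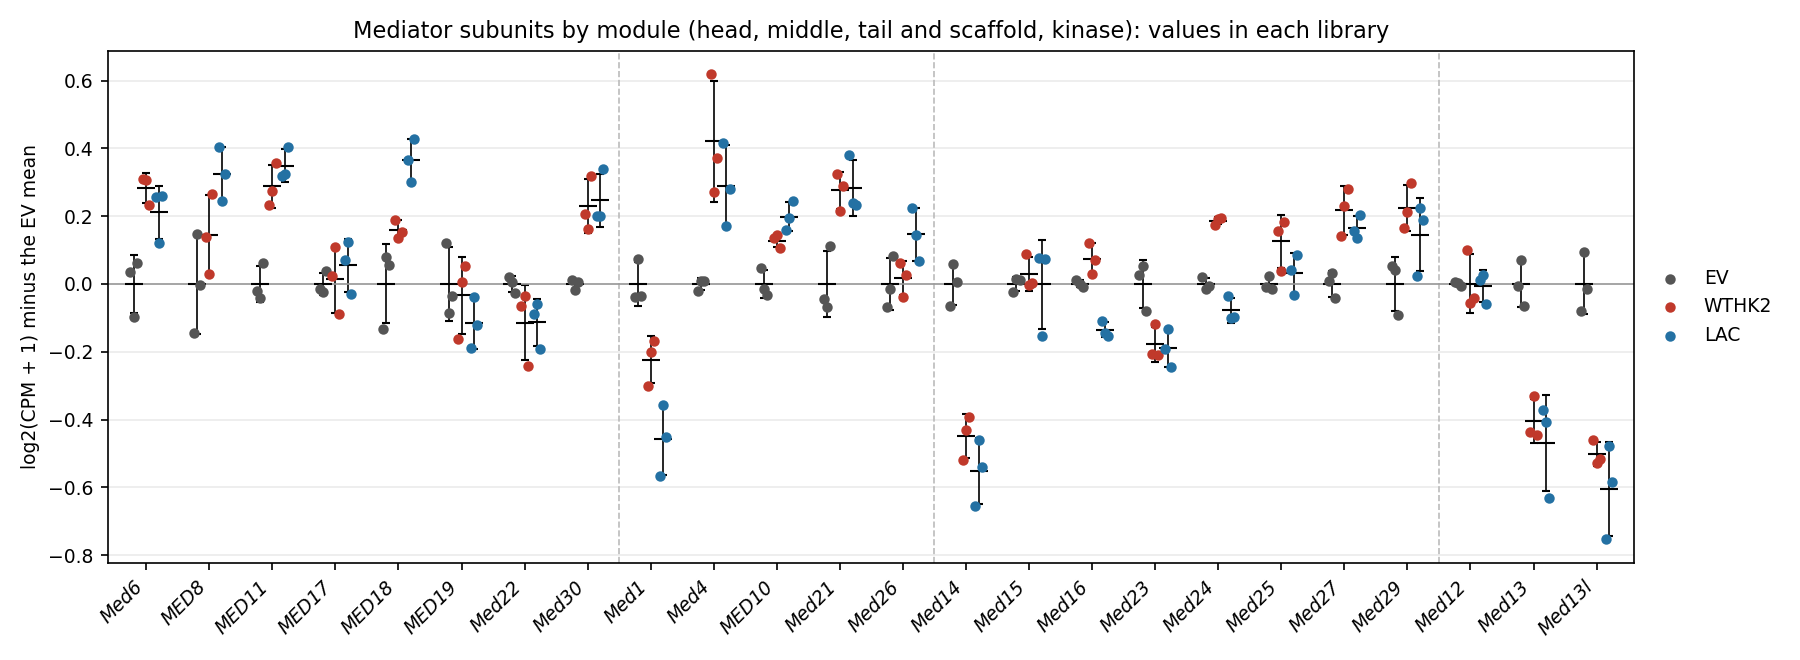
Points give log2(CPM + 1) of each library minus the EV mean of the gene for the 24 Mediator subunits, with EV in grey, WTHK2 in red and LAC in blue, bars as mean ± SD of 3 libraries, and dashed lines between head, middle, tail with scaffold, and kinase modules. Med1, Med14, Med13 and Med13l stand well below EV in all WTHK2 and LAC libraries, whereas Med24 is above EV in WTHK2 only.

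Among the general transcription factors, Gtf2f1 of TFIIF and Gtf2h4 of TFIIH rose in both comparisons. Of 9 listed subunits, 2 were higher and 2 lower in WTHK2, and 4 higher and 1 lower in LAC. The shares called were 44.4% and 55.6%, beside 46.4% and 49.5% of all genes. Gtf2f1, the large subunit of TFIIF, which escorts the polymerase to the promoter, stood at 151, 148 and 153 CPM in EV, 194, 177 and 175 in WTHK2 and 197, 174 and 195 in LAC. Every EV library lay below the others (log2 differences 0.27 and 0.32, adjusted p = 0.000207 and 3.93e-05). Gtf2h4, a core subunit of the helicase-bearing TFIIH, stood at 79.0, 80.6 and 81.9 CPM in EV, 101, 97.5 and 99.5 in WTHK2 and 96.3, 91.7 and 94.1 in LAC. The 3 groups did not overlap, and the log2 differences were 0.30 (SE 0.046, adjusted p = 3.27e-05) and 0.22 (adjusted p = 0.000595).

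The remaining subunits of the general factors rose, fell or were not called. Gtf2a1, the large TFIIA subunit, was at 69.3 ± 2.04 CPM in EV, with 61.2 ± 3.46 in WTHK2 and 58.7 ± 4.72 in LAC (-0.18 and -0.24, adjusted p = 0.024 and 0.0037). Gtf2h1, another TFIIH core subunit, was at 123 ± 2.71 CPM in EV, with 111 ± 3.11 in WTHK2 (-0.16, adjusted p = 0.0069) and 116 ± 2.78 in LAC (-0.09, adjusted p = 0.10). Gtf2b, which encodes TFIIB, the factor that bridges the promoter complex and the polymerase, was not called at 64.6 ± 2.95, 70.6 ± 2.87 and 69.4 ± 1.44 CPM, and neither were Gtf2e1 and Gtf2e2, the TFIIE subunits. Gtf2f2 and Gtf2h3 rose in LAC by 0.15 and 0.14 (adjusted p = 0.026 and 0.046). The call of Gtf2a1 in WTHK2 was lost without EV 2 or WTHK2 3 (adjusted p 0.0988 to 0.128) and under both rescalings, and those of Gtf2f2 and Gtf2h3 in LAC were each lost without any 1 of 4 libraries (EV 1, EV 2, LAC 1 or LAC 2, up to 0.111, and EV 1, EV 3, LAC 1 or LAC 3, up to 0.199).

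The TAF proteins of TFIID, and of the SAGA coactivator that shares some of them, divided by member. Of 12 listed, 4 were higher and 4 lower in WTHK2, and 5 higher and 3 lower in LAC. The share called was 66.7% in each, beside 46.4% and 49.5% of all genes. The rises were led by histone-fold TAFs common to TFIID and SAGA. Taf10 stood at 36.2, 38.1 and 45.1 CPM in EV, 47.9, 48.6 and 50.9 in WTHK2 and 51.4, 49.5 and 50.6 in LAC, with all EV libraries lowest (0.30 and 0.34, adjusted p = 0.00189 and 0.000613). Taf12 stood at 28.6, 33.9 and 27.8 CPM in EV, 41.2, 41.0 and 33.4 in WTHK2 and 36.8, 38.6 and 41.0 in LAC. Its WTHK2 values overlapped EV and its LAC values did not (0.35 and 0.36, adjusted p = 0.00296 and 0.00191). Taf6, a partner of Taf9 within the core of TFIID, was at 99.1 ± 2.78 CPM in EV, with 113 ± 2.33 in WTHK2 (0.18, adjusted p = 0.00261) and 107 ± 3.47 in LAC (0.12, adjusted p = 0.0415).

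The lower TAFs were Taf1, Taf2, Taf3 and Taf4b. Taf1, the largest TFIID subunit, stood at 59.3, 53.6 and 53.8 CPM in EV, 48.4, 46.6 and 47.2 in WTHK2 and 39.9, 50.8 and 47.8 in LAC. No library of either group reached the lowest EV library (-0.22 and -0.27, adjusted p = 0.019 and 0.0057). Taf3, whose PHD finger reads methylated histone H3, was at 69.4 ± 1.24 CPM in EV, with 62.0 ± 3.52 in WTHK2 (-0.16, adjusted p = 0.0266) and 56.9 ± 2.79 in LAC (-0.28, adjusted p = 0.000483). Taf4b, a paralog of Taf4 best known from the gonads, was at 29.5 ± 2.94, 23.5 ± 2.28 and 24.4 ± 2.50 CPM (-0.31 and -0.26, adjusted p = 0.00947 and 0.0242), whereas Taf4 was not called at 60.9 ± 2.55, 64.3 ± 5.96 and 58.5 ± 2.56 CPM. Taf2, which binds the initiator element, was at 25.4 ± 0.893 CPM in EV and 21.9 ± 1.05 in WTHK2 (-0.21, adjusted p = 0.032).

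Several of these TAF calls were lost when 1 library was left out. In WTHK2 the count of lower TAFs fell from 4 to as few as 1 with a library left out: Taf1 was lost without EV 1 or WTHK2 2 (adjusted p 0.0549 to 0.111), Taf2 without EV 1, EV 2, WTHK2 1 or WTHK2 2 (0.0563 to 0.122), Taf3 without EV 1, EV 2, EV 3 or WTHK2 1 (0.0555 to 0.129), and Taf4b without EV 2 or WTHK2 1 (0.053 to 0.0749). Rescaling to the same median ended those of Taf2 and Taf3 too. In LAC, Taf1 was lost without LAC 1 (0.0539), Taf4b without EV 2, LAC 1 or LAC 3 (0.0533 to 0.149), and Taf6 without any 1 of EV 1, EV 2, EV 3, LAC 1 and LAC 2 (0.0501 to 0.165).

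Of the 3 SAGA members with Supt names, Supt3 was called and Supt20 and Supt7l were not. Supt3, which helps SAGA to deliver the TATA-binding protein, stood at 23.0, 24.3 and 26.2 CPM in EV, 33.5, 33.1 and 30.8 in WTHK2 and 27.7, 31.0 and 30.4 in LAC. Both groups lay above every EV library (0.39, SE 0.076, adjusted p = 0.000336, and 0.27, adjusted p = 0.00642).

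Among chromatin and pausing factors, Supt16 fell and Supt4a rose. Supt16, the large subunit of the histone chaperone FACT, stood at 303, 311 and 298 CPM in EV, 234, 252 and 241 in WTHK2 and 231, 269 and 227 in LAC. All EV libraries were highest (-0.33 in each comparison, SE 0.05, adjusted p = 3.5e-05 and 2.92e-05). Supt4a, the small subunit of DSIF, stood at 56.5, 54.9 and 58.3 CPM in EV, 69.4, 70.6 and 65.6 in WTHK2 and 74.7, 62.4 and 68.6 in LAC, above EV in every library (0.27 in each, adjusted p = 0.00143 and 0.00138). Supt5, the large DSIF subunit, was at 401 ± 10.4 CPM in EV, with 421 ± 19.0 in WTHK2 (0.07, adjusted p = 0.17) and 433 ± 18.4 in LAC (0.11, adjusted p = 0.028), a call lost without any 1 of EV 1, EV 2, LAC 1 and LAC 3 (up to 0.117).

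Of 9 elongation factors, 1 was higher and 1 lower in WTHK2 and 2 were higher in LAC (22.2% called in each, beside 46.4% and 49.5% of all genes). The 4 NELF subunits, which hold paused polymerases, were not called in either comparison. Nelfb, for example, was at 87.6 ± 0.927 CPM in EV, with 88.2 ± 3.48 in WTHK2 and 90.1 ± 2.41 in LAC. Nelfe, the RNA-binding subunit, was at 70.7 ± 0.394, 75.9 ± 3.57 and 74.5 ± 0.369 CPM. The calls were all in the PAF complex. Paf1 stood at 120, 121 and 125 CPM in EV, 149, 127 and 134 in WTHK2 and 157, 130 and 147 in LAC, above EV in every library (0.16 and 0.24, adjusted p = 0.0358 and 0.00283). Ctr9, its scaffold, was at 143 ± 5.43 CPM in EV, with 132 ± 5.66 in WTHK2 (-0.12, adjusted p = 0.0451) and 135 ± 4.65 in LAC (-0.08, adjusted p = 0.161). Leaving out any 1 of EV 1, EV 2, EV 3 and WTHK2 3 ended both calls in WTHK2, as did WTHK2 1 for Paf1 and WTHK2 2 for Ctr9 (adjusted p up to 0.19 and 0.209), and both rescalings ended that of Ctr9. Ell, of the super elongation complex, was not called.

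Tceal8 and Tceal9, which resemble the elongation factor TFIIS in sequence, were called higher in LAC and not called in WTHK2 against EV, with a log2 difference in LAC of 0.18 each (adjusted p = 0.0172 and 0.0285). Tceal8 was at 48.2 ± 0.961, 52.4 ± 1.80 and 55.0 ± 3.81 CPM in EV, WTHK2 and LAC. Both calls were lost without EV 1, EV 2 or LAC 3 (adjusted p up to 0.11 for Tceal8 and 0.178 for Tceal9).

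Of 13 listed Integrator subunits, 1 was higher and 4 lower in WTHK2 (38.5% called, beside 46.4% of all genes), and 0 were higher and 2 lower in LAC (15.4%, beside 49.5%). Ints1, a large scaffold subunit, stood at 212, 216 and 206 CPM in EV, 186, 193 and 203 in WTHK2 and 173, 180 and 195 in LAC. All EV libraries were highest, by -0.12 (adjusted p = 0.0337) and -0.21 (adjusted p = 0.001). Ints5 stood at 58.3, 59.3 and 55.1 CPM in EV, 48.9, 48.0 and 47.8 in WTHK2 and 52.9, 51.1 and 50.5 in LAC, without overlap (-0.25, adjusted p = 0.00139, and -0.16, adjusted p = 0.0275). Ints2 fell by 0.17 and Ints3 fell by 0.13 on the log2 scale in WTHK2 (adjusted p = 0.0184 and 0.02), and Ints13 rose by 0.09 (adjusted p = 0.03). Ints4, Ints6, Ints8, Ints9, Ints10, Ints12, Ints14 and Ints6l were not called in either comparison. The WTHK2 call of Ints1 was lost without EV 1, EV 2, WTHK2 1 or WTHK2 2 (adjusted p up to 0.127), of Ints2 without EV 1, WTHK2 2 or WTHK2 3 (0.094), of Ints3 without EV 1, EV 2 or WTHK2 2 (0.0767), and of Ints13 without EV 1, EV 2, WTHK2 2 or WTHK2 3 (0.118). The LAC call of Ints5 was lost without EV 1, EV 2 or LAC 3 (0.106), and rescaling to the same median ended the calls of Ints1, Ints2 and Ints3 in WTHK2 and of Ints5 in LAC.

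The called cleavage and polyadenylation factors were lower than EV, apart from Cpsf7 in LAC. Of 10 listed, 0 were higher and 5 lower in WTHK2, and 1 higher and 4 lower in LAC. The share called was 50% in each, near the 46.4% and 49.5% of all genes. Cpsf2, a partner of the cleavage nuclease of CPSF, stood at 191, 187 and 177 CPM in EV, 142, 144 and 144 in WTHK2 and 139, 153 and 138 in LAC. The gap between EV and both groups was wider than the spread within any of them (-0.36 in each, SE 0.045, adjusted p = 3.07e-06 and 4.11e-06). Cstf2, which binds the GU-rich element downstream of the cleavage site, stood at 60.6, 65.0 and 61.4 CPM in EV, 44.5, 53.9 and 50.9 in WTHK2 and 47.5, 59.0 and 45.9 in LAC (-0.32 and -0.30, adjusted p = 0.00325 and 0.00519). Its paralog Cstf2t stood at 85.9, 85.6 and 82.9 CPM in EV, 58.2, 63.5 and 71.1 in WTHK2 and 63.4, 75.3 and 71.3 in LAC (-0.40 and -0.28, adjusted p = 0.000104 and 0.00235). Both paralogs were lower in every WTHK2 and LAC library than in any EV library, but their sequences are alike, and how reads matching both were counted is not given in the sources used here. Cpsf6, a subunit of the cleavage factor CFIm, fell by 0.16 and 0.15 on the log2 scale (adjusted p = 0.0047 and 0.0063). Cpsf1, the scaffold of CPSF, was at 221 ± 1.77 CPM in EV and 234 in both other groups (SD 6.72 and 6.77, adjusted p = 0.071 and 0.074). The nuclease Cpsf3 was at 105 ± 5.06, 107 ± 3.31 and 103 ± 1.10 CPM, and Cpsf4, Cstf1 and Cstf3 were not called.

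Some names of the family belong to RNA polymerase I or III. The 6 TFIIIA and TFIIIC genes serve the 5S and transfer RNA genes of polymerase III. Of these, 2 were higher and 4 lower in WTHK2, and 2 higher and 3 lower in LAC. The shares called were 100% and 83.3%, beside 46.4% and 49.5% of all genes. Gtf3c1, the largest TFIIIC subunit, stood at 253, 257 and 251 CPM in EV, 242, 219 and 233 in WTHK2 and 222, 238 and 223 in LAC, lower than EV in every library (-0.13 and -0.16, adjusted p = 0.0137 and 0.00477). Gtf3c4 fell by 0.26 and 0.27 on the log2 scale (adjusted p = 0.00638 and 0.00473), and Gtf3c6, a small TFIIIC subunit, rose by 0.19 and 0.17 (adjusted p = 0.00265 and 0.00552). Gtf3a, which encodes TFIIIA, was at 91.7 ± 3.67 CPM in EV, with 103 ± 3.63 in WTHK2 and 101 ± 2.44 in LAC (adjusted p = 0.0077 and 0.02). The WTHK2 call of Gtf3c1 was lost without EV 2 or WTHK2 2 (up to 0.0891) and after scaling libraries to a common median (0.0582). That of Gtf3a in LAC was lost without EV 1, EV 3 or LAC 1 (up to 0.0855). Gtf3c5 was lost in WTHK2 without any 1 of EV 1, EV 2, EV 3, WTHK2 1 and WTHK2 3 (up to 0.195). Gtf3c3 was lost in LAC without EV 2, LAC 1 or LAC 3 (up to 0.107). With 1 library left out, 2 to 3 of these genes were lower in WTHK2 and 2 to 3 in LAC.

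Taf1c, a subunit of the polymerase I factor SL1, was at 29.1 ± 0.691 CPM in EV, with 34.6 ± 3.72 in WTHK2 and 35.7 ± 1.18 in LAC (0.24 and 0.29, adjusted p = 0.0141 and 0.00368), whereas Taf1a, Taf1d and Taf15 were not called. Gtf2i, the signal-responsive factor TFII-I, was at 83.0 ± 4.72, 72.6 ± 0.563 and 70.5 ± 5.25 CPM (-0.19 and -0.23, adjusted p = 0.0114 and 0.00256), and its paralog Gtf2ird1 was not called. In WTHK2, the call of Taf1c was lost without EV 2 or WTHK2 1 (adjusted p 0.051 to 0.109) and that of Gtf2i without EV 2 (0.0695).

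The members were also described by the size of their proteins. The 21 members known to encode large proteins (such as Polr2a, Med13, Med14, Taf1, Supt16 and Ints1) and the 23 known to encode small ones (such as Polr2e, MED11, Med21, Taf10 and Supt4a) were assigned from general knowledge of mammalian proteins after the fold changes had been seen, so the counts are a description with no test. Of the large class, 0 were higher and 16 lower in WTHK2 and 1 higher and 11 lower in LAC, with median log2 differences of -0.17 and -0.16. Of the small class, 14 were higher and 0 lower in WTHK2 and 17 higher and 0 lower in LAC, with a median of 0.20 in each. The other 63 members split into 12 higher and 13 lower, and 15 higher and 11 lower. The shares called in WTHK2 and LAC were 76.2% and 57.1% in the large class and 60.9% and 73.9% in the small class. Those of the other members were 39.7% and 41.3%, beside 46.4% and 49.5% of all genes. After scaling libraries to a common median, the large class had 2 higher and 9 lower and the small class 18 higher and 0 lower in WTHK2.

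The values by library come from the same data that were seen when the classes were assigned and add no support to them. Relative to the EV mean, the median of the small class was 0.19, 0.21 and 0.18 in the WTHK2 libraries and 0.20, 0.16 and 0.27 in the LAC libraries, and that of the large class was -0.18, -0.18 and -0.17, and -0.13, -0.11 and -0.17. Beyond this machinery, 61 listed genes for very long proteins had 0 higher and 52 lower in WTHK2 and 0 and 54 in LAC. Their medians were -0.26 and -0.28, and 85.2% and 88.5% were called, beside 46.4% and 49.5% of all genes. That list was written with earlier results of these data known and shares Trrap with the partner genes below. No list of genes for small proteins outside the machinery was counted. The 4 listed mitochondrially encoded transcripts were all higher (medians 0.52 and 0.59), most in replicate 1 of WTHK2 and LAC, where their medians relative to EV were 0.73 and 0.80. Without those libraries the large class had 0 higher and 14 lower in WTHK2 and 1 higher and 11 lower in LAC, and the small class had 14 and 17 higher. The part of these transcripts in the members' values was not tested.

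**Figure D4:**
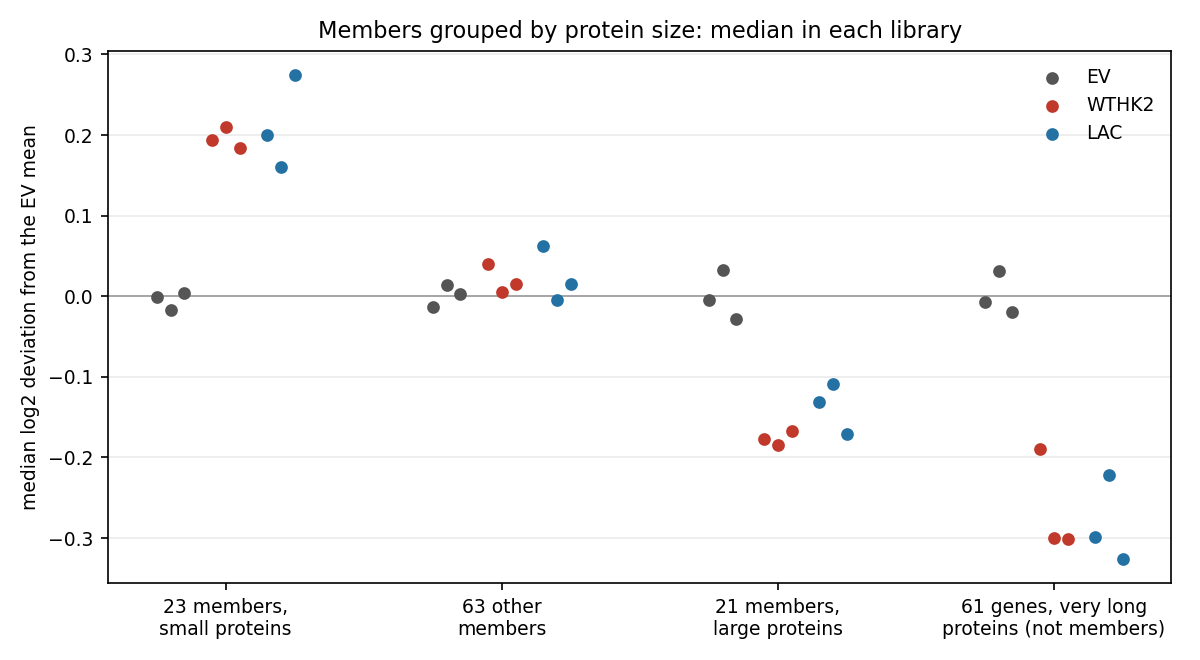
Each point is the median, over the genes of a class, of log2(CPM + 1) minus the gene's EV mean in 1 library, with EV in grey, WTHK2 in red and LAC in blue. The small class lies between 0.16 and 0.27 in all WTHK2 and LAC libraries and the large class between -0.18 and -0.11. Very long proteins outside the machinery lie lower still. Members were placed in size classes after the fold changes had been seen.

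Between WTHK2 and LAC, tested directly, 3 members were higher and 4 lower in WTHK2, which is 6.54% of the members where 16.1% of all genes were called (8.37% higher and 7.76% lower). The groups did not overlap for 17 members (15.9%, beside 29.0% of all genes). The 4 lower members became 1 without WTHK2 2, WTHK2 3 or LAC 3. Several members called against EV in 1 of these groups and not in the other were not called in this direct test. Examples are MED8, MED10, Med25, Med29 and Tceal8 (adjusted p = 0.167, 0.436, 0.176, 0.426 and 0.523).

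All 3 members that were higher in WTHK2 than in LAC are Mediator subunits. Med24, a tail subunit, stood at 414, 404 and 406 CPM in EV, 460, 466 and 467 in WTHK2 and 398, 381 and 381 in LAC. The WTHK2 libraries were above and the LAC libraries below all EV libraries, with a difference between WTHK2 and LAC of 0.26 (SE 0.033, adjusted p = 9.81e-06). Against EV, Med24 rose in WTHK2 (0.19, adjusted p = 0.000154) and was not called in LAC (-0.08, adjusted p = 0.0579). Med16, which holds Med24 and Med23 in the tail, stood at 112, 111 and 111 CPM in EV, 121, 114 and 117 in WTHK2 and 103, 101 and 100 in LAC, with WTHK2 above and LAC below EV (0.21 between them, SE 0.044, adjusted p = 0.00239). Against EV it was called in LAC (-0.14, adjusted p = 0.0151), a call lost after scaling libraries to a common median (0.0847), and not in WTHK2 (0.07, adjusted p = 0.177). Med1 was lower than EV in both and lower in LAC than in WTHK2, by 0.24 (SE 0.052, adjusted p = 0.00335).

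The members lower in WTHK2 than in LAC were Cpsf7, Tceal9, Taf6l and Leo1. Cpsf7, which encodes a CFIm subunit, stood at 137, 136 and 142 CPM in EV, 138, 114 and 124 in WTHK2 and 161, 147 and 155 in LAC. LAC lay above all other libraries while WTHK2 overlapped EV, and the difference was -0.30 (SE 0.055, adjusted p = 0.000648). Against EV, Cpsf7 was called lower in WTHK2 (-0.14, adjusted p = 0.0378) and higher in LAC (0.16, adjusted p = 0.0223), but the WTHK2 call was lost without any 1 of EV 1, EV 2, EV 3, WTHK2 2 and WTHK2 3 (up to 0.24) and under both rescalings, and the LAC call without EV 1, EV 2, LAC 1 or LAC 3 (up to 0.0929).

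Leo1, of the PAF complex, stood at 149, 138 and 151 CPM in EV, 160, 152 and 141 in WTHK2 and 164, 168 and 171 in LAC. Only LAC lay apart from EV (0.20, adjusted p = 0.00194, against 0.05 in WTHK2, adjusted p = 0.421), and the difference between WTHK2 and LAC was -0.15 (adjusted p = 0.0361). Taf6l, a SAGA paralog of Taf6, stood at 71.7, 71.4 and 78.8 CPM in EV, 87.7, 69.5 and 75.3 in WTHK2 and 93.9, 88.4 and 86.0 in LAC. Its WTHK2 libraries overlapped both other groups, with a difference from LAC of -0.21 (adjusted p = 0.0399). Tceal9 stood at 48.5, 47.6 and 49.5 CPM in WTHK2 and 55.5, 52.2 and 61.7 in LAC (-0.21, adjusted p = 0.029). The call of Leo1 was lost without WTHK2 2, WTHK2 3, LAC 2 or LAC 3 (up to 0.212), of Taf6l without any 1 of WTHK2 2, WTHK2 3, LAC 1, LAC 2 and LAC 3 (up to 0.232) and with quantile normalization (0.0544), and of Tceal9 without WTHK2 2, WTHK2 3 or LAC 3 (up to 0.178).

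**Figure D5:**
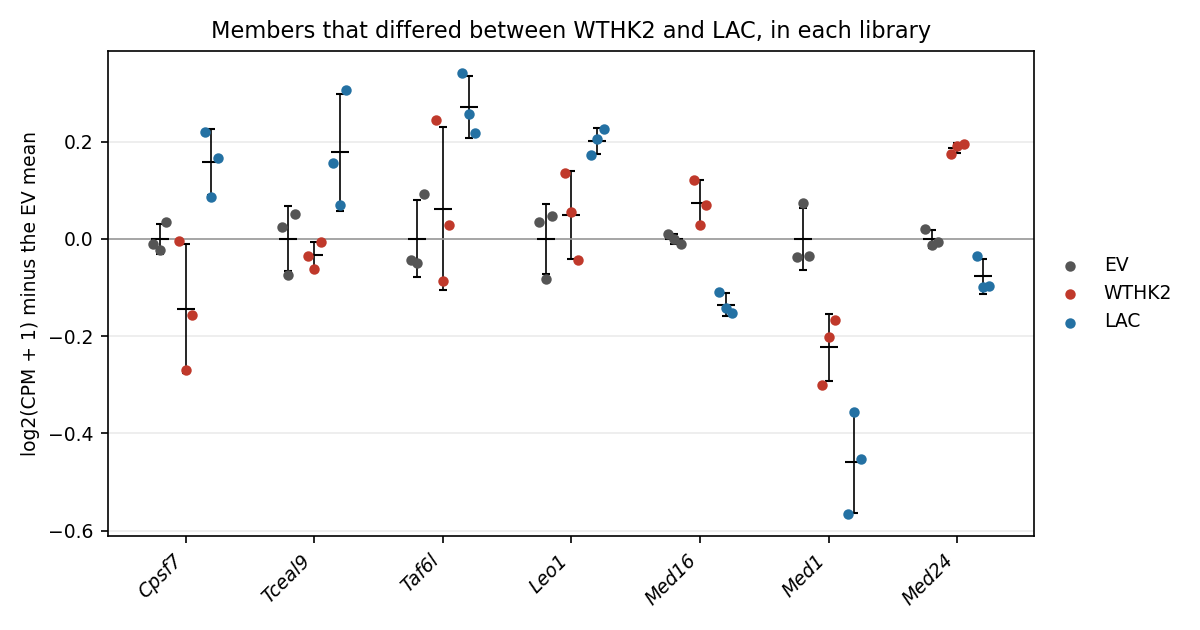
Points give log2(CPM + 1) of each library minus the gene's EV mean for the 7 members that differed between WTHK2 and LAC, with EV in grey, WTHK2 in red and LAC in blue; bars are the mean ± SD of 3 libraries. Med24 and Med16 have WTHK2 above and LAC below EV, Med1 is below EV in both, and the WTHK2 points of Taf6l reach into both other groups.

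Genes that work with this machinery but carry other names were counted from a list of 86, of which 64 were listed. In WTHK2, 8 were higher and 20 lower (median log2 difference -0.03), and in LAC 11 were higher and 22 lower (median -0.03). The shares called were 43.8% and 51.6%, near the 46.4% and 49.5% of all genes. Without EV 1, the 28 changed partners in WTHK2 became 17. Ssu72, a phosphatase of the polymerase's C-terminal domain, stood at 21.0, 19.2 and 25.9 CPM in EV, 45.9, 46.7 and 45.1 in WTHK2 and 23.0, 23.5 and 24.4 in LAC. WTHK2 stood apart from both other groups (1.04 against EV, SE 0.088, adjusted p = 2.8e-08, and 0.93 against LAC, adjusted p = 2.32e-07). LAC was not called (0.11, adjusted p = 0.315). Whether the chromosomal neighbours of Ssu72 changed with it was not tested here. Cdk12, a kinase of the same domain, stood at 196 ± 10.3 CPM in EV, with 161 ± 7.96 in WTHK2 and 129 ± 7.66 in LAC, the same order of groups as Med1 (-0.28 and -0.60 against EV, adjusted p = 0.000165 and 2.61e-07). Aff1, a scaffold of the super elongation complex, fell by 0.39 and 0.43 on the log2 scale (adjusted p = 6.08e-05 and 2.55e-05), and Rprd2, which binds the C-terminal domain, fell by 0.45 in each (adjusted p = 3.96e-05 and 4.49e-05).

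The dedicated subunits and factors of the other polymerases also held both higher and lower genes. Of 11 listed genes of RNA polymerase I, 3 were higher and 3 lower in WTHK2, and 4 higher and 2 lower in LAC. The share called was 54.5% in each, beside 46.4% and 49.5% of all genes. Polr1a, the large subunit, was at 173 ± 9.59 CPM in EV, with 139 ± 3.05 in WTHK2 and 148 ± 8.15 in LAC (-0.32 and -0.22, adjusted p = 2.88e-05 and 0.000922), and Polr1d, a small subunit that polymerase III shares, rose by 0.17 and 0.25 (adjusted p = 0.00388 and 0.000125). Of 15 listed genes of RNA polymerase III, 2 were higher and 3 lower in each comparison. The share called, 33.3% in each, was below the 46.4% and 49.5% of all genes. Bdp1, of TFIIIB, fell by 0.31 and 0.15 on the log2 scale (adjusted p = 0.00017 and 0.0279), and Polr3b, the second-largest subunit, fell by 0.21 and 0.22 (adjusted p = 0.00447 and 0.00364). The 5 changed genes of polymerase III became 2 without EV 2 and 3 without EV 3 or WTHK2 2 in WTHK2, and 3 without EV 2, LAC 1 or LAC 3 in LAC. The call of Polr3b in WTHK2 was lost without EV 2 (adjusted p = 0.0508).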

How the data were processed

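Messenger RNA libraries from MI5-4 cells were made with a Nugen kit, per the labels' protocols, and the submitters' processing notes name, among others, the aligner STAR (2.7.0a), the read counter featureCounts (2.0.1) and edgeR (3.8). Which genome build and annotation were used is not given in the sources used here. Normalized CPM for 6753 genes were deposited by the authors, with a lowest gene mean of 20.4 CPM, and lower genes were not analysed here. In each library the values were multiples of 1 smallest increment to within 0.01 of a whole number, and that increment gave the effective library size. Samples were grouped by label, and all 9 libraries were fitted together on log2(CPM + 1) with limma (3.58.1, R 4.3.3), using a mean-variance trend, no covariates, two-sided tests and Benjamini-Hochberg adjustment over all genes. A mean of at least 1 CPM was required, which removed 0 genes. The fit was tried on simulated data with far fewer changed genes than were called here. The simulated libraries varied independently, so that run does not show how the fit performs on these data. The rule for members reads symbols only and leaves out a gene by name, but the members, lists and tests were chosen with earlier results of these data known. Named genes were Polr2a, the called members with the 10 greatest rises and 10 greatest falls against EV, provided the groups did not overlap, likewise the 5 greatest in each direction from LAC to WTHK2, per role group at most 2 called members by adjusted p, paralogs, at most 4 partners and at most 2 genes of each other polymerase. Further members, the hexokinase values and the size classes were added after their values were seen. Alternatives covered the pseudocount, filter, scaling, spread, replicate block, threshold and left-out libraries. Tables and plots used Python 3.11.15. Some members are counted but not reported by name here.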

Additional observations from a re-analysis of the deposited data

How the results depend on the processing

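Of 136 called values followed through the alternatives, 94 were called under every run at the same threshold that included the gene. Another 42 were lost under at least 1 run, and 0 changed direction. Genes with a mean under 50 CPM were not part of the run with that filter. Some called values printed here were not followed, such as Bdp1 and Rprd2 in LAC, Polr1d in WTHK2 and the chromosomal neighbours. In WTHK2 against EV, the 26 higher members became 16 when a mean of at least 50 CPM was required, which tests fewer genes. The 29 lower members became 18 after scaling libraries to a common median, 16 at an adjusted p under 0.01, and 16 to 25 with 1 library left out; the cause was not tested. Between WTHK2 and LAC, the 4 lower members became 1 in a fit of the 6 libraries compared, 1 at an adjusted p under 0.01, 7 with the replicate block, and 1 to 6 with 1 library left out. At an adjusted p under 0.01 the changed partners became 16 in WTHK2 and 5 between WTHK2 and LAC, and the changed polymerase III genes 2 in WTHK2, 3 in LAC and 0 between WTHK2 and LAC. With 1 library left out, the changed partners numbered 17 to 25 in WTHK2 and 5 to 11 between WTHK2 and LAC, and the changed polymerase III genes 2 to 5 in WTHK2 and 3 to 6 in LAC. A mean of at least 50 CPM left 3 changed polymerase III genes in LAC. Between WTHK2 and LAC, the 1 changed polymerase III gene became 2 after rescaling to the same median, 0 with quantile normalization, with 6 libraries or with no variance trend, 3 with the replicate block, and 0 to 2 with 1 library left out. The 1 changed polymerase I gene there became 2 with the replicate block, 1 to 2 with 1 library left out, and 3 with replicate 1 of WTHK2 and of LAC both left out. Replicate numbers were not taken as pairs: same-numbered libraries correlated in their deviations from the group means by 0.076, 0.14 and -0.0057 for EV and WTHK2, 0.017, 0.21 and 0.030 for EV and LAC, and 0.44, 0.25 and 0.073 for WTHK2 and LAC, and not every library correlated best with its own number. With the replicate block, 26 members were higher and 29 lower in WTHK2 and 34 higher and 25 lower in LAC. A planned count test on reads recovered from the CPM values was not run, and neither was a planned description by protein length. Depth is not known beyond the effective library sizes.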

Other observations

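Gene order along the chromosomes was taken from the RefSeq gene table of CriGri-PICRH-1.0, where symbols located 6143 of the 6753 listed genes (91.0%) and 100 of the 107 members and was used only for order. This look at neighbours was added after the data were seen. Over the 7 listed genes on each side, the median log2 difference between WTHK2 and LAC was 0.18 around Med1 and 0.19 around Med24. In either direction, 7.75% of the 5986 such windows reached 0.1 in size, and the share reaching 0.18 was not counted. Med1 and Med24 lie on the same chromosome with 6 listed genes between them, so their windows overlap. Of the genes next to Med1, Cdk12 differed by 0.32 between WTHK2 and LAC (SE 0.051, adjusted p = 0.000186) and Rpl19 by 0.02 (adjusted p = 0.723). The next genes outward, Lasp1 and Stard3, differed by 0.29 and 0.21 (adjusted p = 7.03e-06 and 0.00781). Of the genes next to Med24, Thra differed by 0.21 (adjusted p = 0.00318) and Ormdl3 by 0.18 (adjusted p = 0.0129). The next genes outward, Nr1d1 and Zpbp2, differed by 0.02 and 0.16 (adjusted p = 0.875 and 0.0825). Around Taf6l and Cpsf7 the neighbours' medians were -0.13 and -0.10. Of the genes next to Tceal9, Bex3 differed by -0.21 (adjusted p = 0.00358) and Tceal8 by -0.07 (adjusted p = 0.523). Around Med16 the median was 0.02, around Leo1 0.02 and around Tceal9 -0.04. Against EV, 26.4% of such windows in WTHK2 and 25.6% in LAC reached 0.1 in size. In WTHK2 some medians went with the member's own difference, such as 0.18 around Polr2e (0.23), -0.13 around Polr2b (-0.12) and -0.27 around Cstf2t (-0.40). Others did not, such as 0.02 around Polr2a (-0.28), 0.00 around Med4 (0.42) and 0.22 around Med1 (-0.22). The part of neighbours in the members' values was not tested.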
